A study of Mus musculus with 6 samples.

Results

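The clustered histone genes encode the core histones H2A, H2B, H3 and H4 and the linker histone H1 from 4 groups of short genes, here named Hist1, Hist2, Hist3 and Hist4. Their members were taken as every row of the table of transcript start windows whose gene symbol begins with Hist1h, Hist2h, Hist3h or Hist4h, without symbols that contain -ps, and 38 of the 49366 windows met this rule. The annotation of the same release holds 69 genes with such symbols, and 31 of them have no row in the window table. Of the 69, the annotation lists 2 H2A genes, Hist1h2aj and Hist1h2al, as pseudogenes, and neither has a row. Chromatin accessibility at these genes was therefore also read from 42 of the 36097 accessible peaks, those that reach within 1 kb of an annotated start of any of the 69 genes.

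Open chromatin was profiled by ATAC-seq, an assay whose transposase places sequencing adapters where DNA is accessible. The nuclei were sorted for PCM1, a protein at the envelope of muscle fibre nuclei, from the limb muscles of wild-type male C57BL/6J mice. Muscles were injected at 8 weeks of age with the vector AAV6:Yap-shRNA, which carries a short hairpin RNA against the transcriptional co-activator Yap, or with AAV6:LacZ-shRNA in the contralateral limb as control, and were collected 28 days later. There were 3 Yap-shRNA and 3 LacZ-shRNA samples, each labelled as 4 gastrocnemius and 4 tibialis anterior muscles. A sample is thus a pool of muscles, and the p-values below measure the spread between pools. Both groups carried a vector and a hairpin, and an uninjected muscle was not analysed here.

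Replication-dependent histone genes lack introns and are transcribed mainly in S phase, when new DNA must be packaged. Their transcripts end in a stem-loop that is bound by Slbp in place of a poly(A) tail, and their transcription is organised in histone locus bodies around Npat. Muscle fibre nuclei have left the cell cycle, and histones in such nuclei are replaced largely by variants such as H3.3 that are encoded outside the clusters.

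The H2A and H2B genes mostly lie head to head, so that a single stretch of DNA between both starts serves as promoter of each. Of these stretches, 4 are shown to give the layout on which the counts below depend. They are read on the plus strand of GRCm38, from the base after the left start to the base before the right start, and capitals mark exact matches on either strand to TATAAA (the TATA box), CCAAT (the CCAAT box), ATTTGCAT (the octamer), GGTCCG (the core of the H4 promoter element), TTTGGCGC, TTTCGCGC and TTTCCCGC (E2F-type sites) or TGACGTCA (the cyclic AMP response element). The stretch of Hist1h2ag and Hist1h2bj lies at chr13:22042945-22043213, that of Hist1h2ac and Hist1h2bc at chr13:23683949-23684198 and that of Hist1h2bf and Hist1h2ad at chr13:23574197-23574380, and a peak covered all 3. The stretch of Hist1h2bq and Hist1h2ao at chr13:21810198-21810464 had no peak. Both of its windows are 100% covered by a copy of 100% identity at Hist1h2ap and Hist1h2br. Closed chromatin and reads that map to both copies cannot be told apart there.
Hist1h2ag to Hist1h2bj: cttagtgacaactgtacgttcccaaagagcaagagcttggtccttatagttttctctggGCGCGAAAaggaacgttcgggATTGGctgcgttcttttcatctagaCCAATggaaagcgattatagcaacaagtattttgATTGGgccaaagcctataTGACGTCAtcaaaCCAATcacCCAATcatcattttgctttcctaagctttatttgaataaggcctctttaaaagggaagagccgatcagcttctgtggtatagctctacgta
Hist1h2ac to Hist1h2bc: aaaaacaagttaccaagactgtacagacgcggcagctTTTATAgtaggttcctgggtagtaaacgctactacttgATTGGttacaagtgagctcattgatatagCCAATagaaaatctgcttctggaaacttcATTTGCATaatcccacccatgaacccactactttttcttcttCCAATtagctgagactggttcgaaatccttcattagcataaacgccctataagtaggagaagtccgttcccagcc
Hist1h2bf to Hist1h2ad: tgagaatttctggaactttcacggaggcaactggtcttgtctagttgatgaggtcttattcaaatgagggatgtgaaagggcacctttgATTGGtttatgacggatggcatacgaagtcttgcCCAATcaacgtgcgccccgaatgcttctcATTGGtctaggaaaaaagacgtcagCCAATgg
Hist1h2bq to Hist1h2ao: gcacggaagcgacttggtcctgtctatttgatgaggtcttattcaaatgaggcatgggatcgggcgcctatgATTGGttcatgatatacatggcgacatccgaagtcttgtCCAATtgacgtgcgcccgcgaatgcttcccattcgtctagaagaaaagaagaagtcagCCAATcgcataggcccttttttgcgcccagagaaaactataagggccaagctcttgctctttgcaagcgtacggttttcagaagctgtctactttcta

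Among genes of the other classes, the closest head-to-head starts are those of Hist1h3f and Hist1h2bh, 660 bp apart. The 200 bases before the start are shown on the strand of the gene for the 2 H4 genes, the H1 gene and the H3 gene whose lone windows were the most accessible of their class, and for an H4 and an H1 gene without a peak. These are Hist1h4c (chr13:23698455-23698654, minus strand), Hist1h4d (chr13:23581398-23581597, plus strand), Hist1h1c (chr13:23738608-23738807, plus strand) and Hist1h3e (chr13:23562370-23562569, minus strand), and, without a peak, Hist1h4b (chr13:23756813-23757012, plus strand) and Hist1h1t (chr13:23695614-23695813, plus strand), the testis form of H1. Capitals mark the same 8 strings.
Hist1h4c: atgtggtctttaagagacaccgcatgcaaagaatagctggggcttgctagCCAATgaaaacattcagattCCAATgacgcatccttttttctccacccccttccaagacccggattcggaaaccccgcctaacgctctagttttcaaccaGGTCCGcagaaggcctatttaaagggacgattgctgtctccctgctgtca
Hist1h4d: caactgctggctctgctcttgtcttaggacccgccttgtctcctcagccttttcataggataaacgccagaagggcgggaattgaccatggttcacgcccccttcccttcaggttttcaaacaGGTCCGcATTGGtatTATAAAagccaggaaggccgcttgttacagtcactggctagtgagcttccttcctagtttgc
Hist1h4b: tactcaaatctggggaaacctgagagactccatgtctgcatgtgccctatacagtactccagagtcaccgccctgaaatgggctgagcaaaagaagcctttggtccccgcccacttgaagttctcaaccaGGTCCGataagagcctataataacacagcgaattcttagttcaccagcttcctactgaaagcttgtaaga
Hist1h1c: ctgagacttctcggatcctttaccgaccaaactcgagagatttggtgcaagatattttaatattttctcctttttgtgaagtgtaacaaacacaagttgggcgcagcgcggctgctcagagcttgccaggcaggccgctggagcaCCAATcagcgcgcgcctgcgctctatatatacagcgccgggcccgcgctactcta
Hist1h1t: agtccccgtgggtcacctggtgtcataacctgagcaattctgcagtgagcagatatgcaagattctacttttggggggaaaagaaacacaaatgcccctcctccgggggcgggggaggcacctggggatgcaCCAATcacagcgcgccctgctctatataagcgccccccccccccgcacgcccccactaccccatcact
Hist1h3e: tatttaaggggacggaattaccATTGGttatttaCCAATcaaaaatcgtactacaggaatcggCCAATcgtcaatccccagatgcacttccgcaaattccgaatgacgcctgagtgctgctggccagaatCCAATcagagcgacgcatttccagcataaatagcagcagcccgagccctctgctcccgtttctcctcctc
The CCAAT box stands before all of these genes except Hist1h4b, and the H4 core stands before the annotated starts of all 3 H4 genes, with or without a peak. RefSeq places the start of Hist1h4b further upstream, and the H4 core begins 6 bases after that start.

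The windows held 3326803 to 10319467 counts per sample and the peaks 2588520 to 6871176, with the fewest in LacZ-shRNA replicate 2 in both tables. ATAC-seq does not measure the knockdown itself, and the window of Yap1 held 12.1 to 16.7 CPM (counts scaled to the library total with TMM factors) in the LacZ-shRNA samples and 12.1 to 16.5 in the Yap-shRNA samples. Windows of 8 muscle fibre markers had a median of 31.8 CPM per kb of window, against 4.45 over all windows. The medians were 5.32 for 6 leukocyte markers, 3.44 for 5 fibroblast markers, 5.36 for 4 endothelial markers and 7.89 for 3 satellite cell markers. Every listed marker had a row, which needs a mean of at least 10 counts, so none could be at 0.

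Which histone genes could be read from the window table followed the spacing of the genes. All 6 H1 genes and all 12 H3 genes had a row, as did 12 of 13 H4 genes, but only 6 of 18 H2B genes and 2 of 20 H2A genes. Windows reach 1 kb from every annotated start in both directions, and the counting tool by default leaves out a fragment that touches the windows of more than 1 gene. The 31 genes without a row had between 0 and 389 bp of window that belonged to them alone, with a median of 0 bp, and the 38 members had between 239 and 2001 bp, with a median of 904 bp. Of the 69 genes, 27 started within 400 bp of a histone gene on the opposite strand, and 4 of these 27 had a row. The windows of 44 overlapped that of a short entry which the annotation lists as a microRNA.

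**Figure D1:**
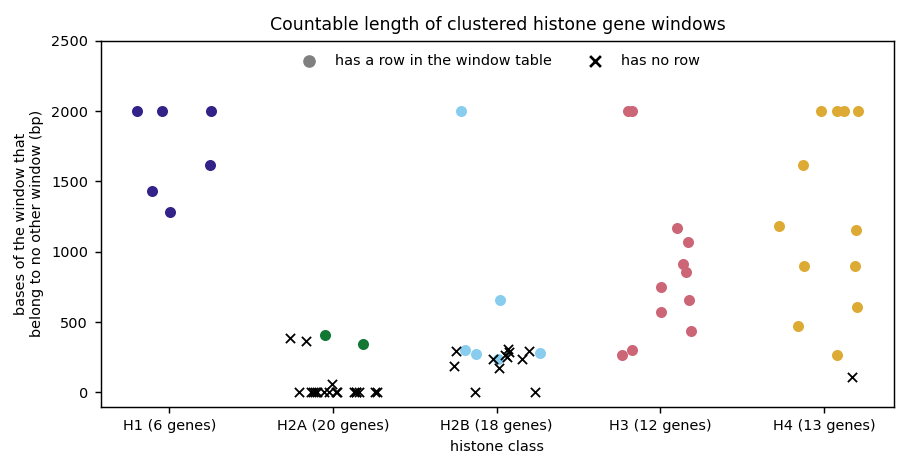
Bases of the 2 kb window that belong to no other gene's window (y axis, bp) for the 69 annotated clustered histone genes by histone class (x axis); filled points have a row in the window table and crosses have none. All 6 H1 and all 12 H3 genes have a row, and 18 of 20 H2A genes have none and lie between 0 and 389 bp.

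The same held across the genome. Among genes whose window overlaps another, 0.196% of the 1530 with no base of their own had a row, 16.5% of those with up to 250 bp of their own, 78.5% of those with more and up to 500 bp, and 96.1% of those with more than 500 and up to 1000 bp. For the histone genes these counts were 0 of 17, 1 of 7, 10 of 18 and 9 of 9. Genes absent from the window table often had a peak: a peak covered the start of 23 of the 31 absent genes and of 27 of the 38 members. Hist1h4h, the single H4 gene without a row, had 107 bp of its own and a peak of 160 counts on average over its start.

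Of the 6 H2B genes with a row, Hist3h2ba had a window of its own, and the windows of the other 5 held fewer counts than the peaks over their starts. The window of Hist1h2bk held 10.8 counts per sample on average and the peak over its start 71.2 counts, a ratio of 0.152. For Hist1h2bj the window held 12.0 counts and the peak 104.5. Over the members with both values, the ratio of window to peak counts ranged from 0.0456 for Hist2h2be to 1.83 for Hist1h4d. The median ratio was 0.152 for 5 H2B genes, 0.596 for 11 H3 genes and 1.28 for 8 H4 genes. Peaks were counted without regard to genes, so a head-to-head pair kept its counts there and could not be divided between its 2 genes.

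Peaks outlined the layout of the genes. Over 8 head-to-head pairs of H2A and H2B, whose starts lay 176 to 302 bp apart, a single peak of 1042 to 1402 bp covered both starts. The centre of these peaks lay a median of 38.8 bp from the midpoint between the starts, at most 164 bp away for Hist1h2ai and Hist1h2bl. Peaks over a single start were narrower, with a median width of 750.5 bp over 24 peaks, and leaned into the gene. The centre was downstream of the start in 23 of 24, including all 9 H4 peaks (median 117 bp) and all 8 H3 peaks (median 176 bp), and the exception was Hist1h2bb, which was singled out after its values were seen. The broadest of these 24 peaks, of 1666 bp, covered Hist1h1c and was centred 520.5 bp into the gene.

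**Figure D2:**
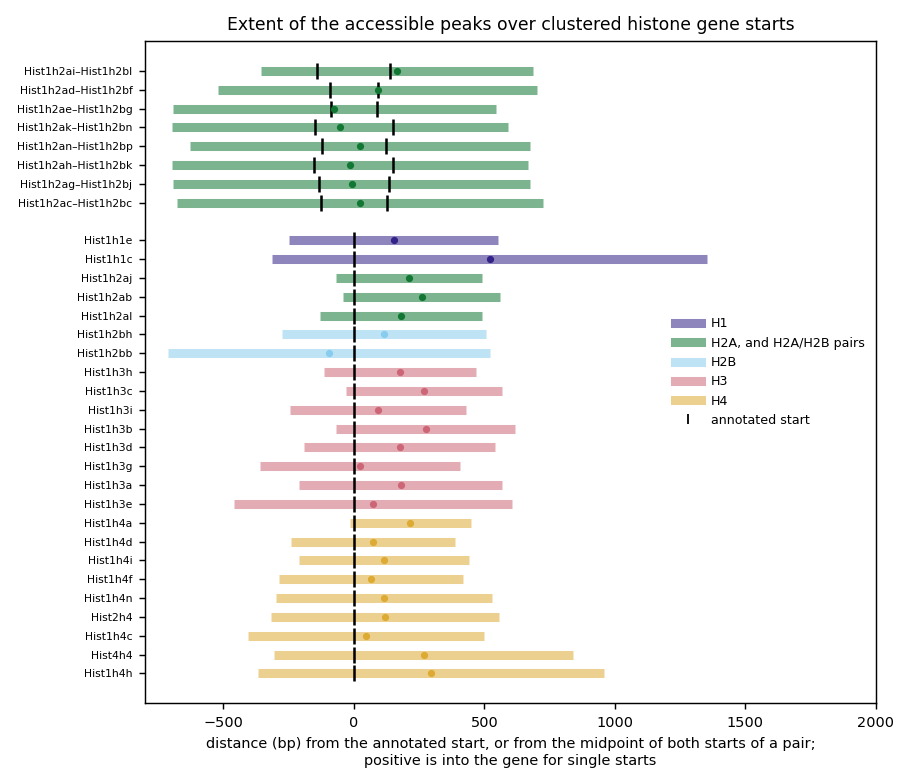
Extent of the peaks (bars) and their centres (points) over head-to-head pairs (top, distance in bp from the midpoint of both starts) and over single starts (below, distance in bp from the start, positive into the gene), coloured by histone class, with black ticks at annotated starts. Pair peaks span 1042 to 1402 bp around both starts, and 23 of 24 single-start peaks are centred inside the gene.

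Most peaks along the clusters reached within 1 kb of a histone gene start. The large Hist1 segment from Hist1h4h to Hist1h1a, 235 kb on chromosome 13, held 26 peaks, of which 21 reached within 1 kb of the starts of its 29 genes. The segment from Hist1h2bl to Hist1h2br, 120 kb long with 19 genes, held 9 peaks, all within 1 kb of such starts. In the Hist2 segment on chromosome 3, 51.9 kb long, all 6 peaks did so and every one of the 10 genes had a peak. Of the 69 genes, 14 had no peak within 1 kb of the start. These included the testis-specific pair Hist1h2ba and Hist1h2aa, the testis gene Hist1h1t, and Hist1h1a, Hist1h1d, Hist1h4b, Hist1h4k, Hist1h2af and Hist3h2ba, and the other 5 belong to the near-identical copies described below.

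Levels of windows were compared per kb of window. The 38 members had a median of 2.86 CPM per kb, against 4.45 over all windows and 3.13 over 1397 windows of olfactory receptor genes. The latter were taken as a closed chromatin reference, and their expression in muscle was not checked. This median mixed windows with and without shared bases. The 28 members that overlap another gene's window had a median of 1.64 CPM per kb of window, and the 10 that overlap none had 6.45, against 4.71 over all windows that overlap none. Of these 10, 9 were above that genome-wide median. Divided by the bases that belong to the gene alone, the 28 overlapping members had a median of 6.17 CPM per kb, with a range from 2.73 to 15.4. A row needs a mean of at least 10 counts, so a gene with few bases of its own entered only with a high value per base. Hist1h2ab, with 389 bp of its own, had no row. This median is thus raised by the filter and cannot be set beside that of the lone windows.

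Among the 10 lone windows, linker histone, H3 and H4 genes led. Hist1h1c, which encodes H1.2, had 10.7, 14.1 and 14.9 CPM per kb in the LacZ-shRNA samples and 12.5, 12.4 and 11.8 in the Yap-shRNA samples. Hist1h4c had 9.76, 11.7 and 14.5 CPM per kb with LacZ-shRNA and 11.9, 10.9 and 11.2 with Yap-shRNA. The H3 gene Hist1h3e had 9.22, 8.97 and 11.1 CPM per kb with LacZ-shRNA and 9.36, 9.03 and 8.80 with Yap-shRNA. In each of the 3 genes the Yap-shRNA samples lay within the range of the LacZ-shRNA samples or just below it, and the widest spread was among the LacZ-shRNA samples. Their means reached the 95.1, 93.8 and 89.5 percentiles of all lone windows.

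The other 7 lone windows were lower and closer together. Hist3h2ba, the H2B gene of the Hist3 cluster, ranged from 6.10 to 7.70 CPM per kb over the 6 samples, Hist1h4d from 5.33 to 7.33 and the linker histone gene Hist1h1b from 5.21 to 7.34. These 3 ranges overlapped throughout, and no order among them was apparent. Hist1h3i ranged from 4.79 to 5.96, Hist1h4j from 4.78 to 6.72 and the testis gene Hist1h1t from 3.68 to 5.41 CPM per kb. Hist1h4k was lowest at 2.56 to 4.70, and its range overlapped that of Hist1h1t but neither that of Hist1h3i nor that of Hist1h4j. Hist3h2ba, Hist1h1t and Hist1h4k had no peak. A row needs a mean of at least 10 counts, so no window with a row could be empty. The mean levels of these genes were 6.76, 4.80 and 3.90 CPM per kb. The median was 4.71 over all lone windows and 3.13 over olfactory receptor windows.

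Peaks at histone genes were shallow for promoter peaks. Their median was 14.2 CPM per kb of peak, against 25.3 over 12716 promoter peaks and 15.6 over all other peaks, and 39 of 42 were below the promoter median. Below the 10 percentile of promoter peaks, 17.3 CPM per kb, lay 30 of 42, among them 27 of the 34 peaks of the Hist1 cluster. The 6 peaks of the Hist2 cluster had a median of 17.8 CPM per kb. Histone peaks were also narrower than promoter peaks, with a median width of 838.5 bp against 1144 bp. Without division by width, their median was 12.1 CPM, against 29.9 for promoter peaks and 9.68 for all other peaks, so the order against the other peaks turned.

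The highest peak per kb covered Hist1h4c, with 24.8, 25.8 and 32.4 CPM per kb in the LacZ-shRNA samples and 27.7, 26.3 and 26.2 in the Yap-shRNA samples. The peak over Hist2h4 had 25.0, 28.6 and 25.1 with LacZ-shRNA and 26.3, 25.4 and 28.3 with Yap-shRNA. The means of both H4 peaks were above the promoter median, and their ranges overlapped each other. The next peaks covered Hist3h2a with a mean of 25.5 CPM per kb, Hist4h4, the single gene of the Hist4 cluster, with 23.3, and Hist2h2ab, Hist2h2ac and Hist2h2be with 22.8. The peak of Hist3h2a also lay at the start region of Trim17 and that of the 3 Hist2 genes at that of Bola1, so these values do not belong to histone genes alone.

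**Figure D3:**
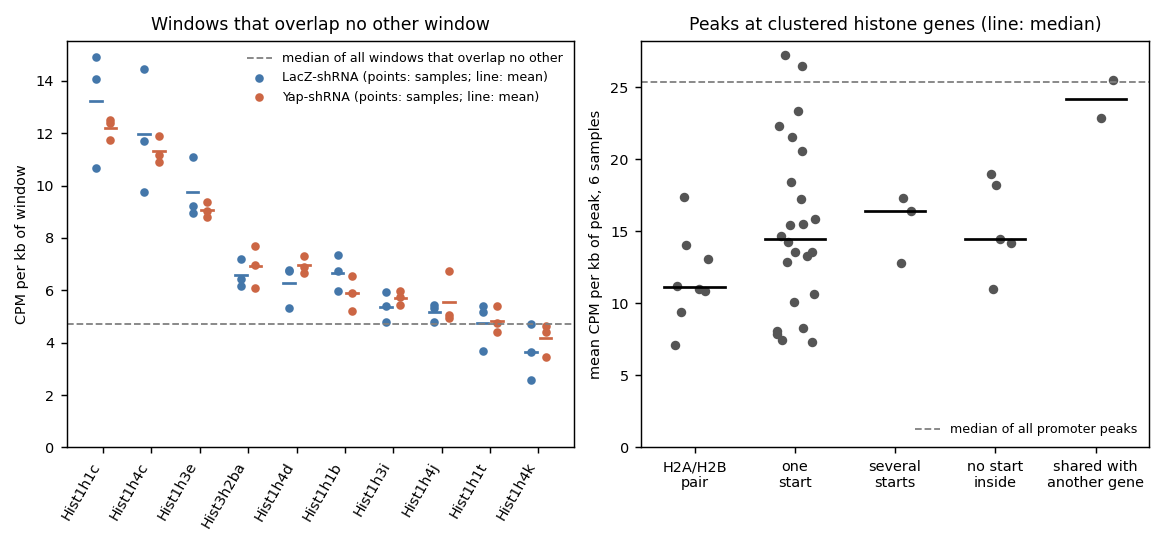
Left, CPM per kb of window (y axis) in each sample for the 10 members whose window overlaps no other gene's window, with lines at group means and the dashed line at 4.71, the median of all such windows. Right, mean CPM per kb of peak over 6 samples for the 42 histone gene peaks by layout, with lines at medians and the dashed line at 25.3, the median of all promoter peaks; 39 of 42 lie below it.

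Among the layouts, head-to-head pairs had the lowest median per kb. The 8 pair peaks had a median of 11.1 CPM per kb and a range from 7.12 for Hist1h2ad and Hist1h2bf to 17.4 for Hist1h2ac and Hist1h2bc. The 9 H4 peaks over a single start had a median of 17.2 and the 8 H3 peaks 13.4 CPM per kb, and both ranges overlapped that of the pairs. The 3 H2A peaks over a single start, 2 of them at the pseudogenes Hist1h2aj and Hist1h2al, had a median of 8.05. Near-identical copies, described below, covered 64.5% of the Hist1h2aj peak and 69.8% of the Hist1h2al peak. They covered 31.8% of the lowest pair peak and 27.5% of the highest, but none was found in that of Hist1h2ak and Hist1h2bn. Whether copies lowered these levels was not tested. In CPM without division by width, pair peaks had a median of 14.02 CPM and single-start peaks 10.5 CPM, so the order turned. The sample medians of the pair peaks ranged from 10.7 to 12.7 CPM per kb and those of all member peaks from 13.2 to 15.8.

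The promoters of the histone classes differed in the strings they hold. RefSeq promoters (GRCm38.p6, 250 bases before to 50 after the start) were matched to 61 of the 69 genes. GGTCCG stood in 11 of 12 H4 promoters, first at a median of 46 bases before the start, in 1 of 10 H3, 1 of 16 H2B and 0 of 18 H2A promoters, and in 8.25% of all 32851 promoters. CCAAT stood in all 18 H2A, 16 H2B, 10 H3 and 5 H1 promoters but in 3 of 12 H4 promoters, and in 37.4% of all. The octamer ATTTGCAT stood in 7 H2A and 6 H2B promoters and in no H1, H3 or H4 promoter, against 1.74% of all. Promoters of a head-to-head pair share bases and are not independent.

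The other strings were counted in the same way. TATAAA stood in 34 of 61 member promoters, against 13.6% of all. Of the E2F-type strings, TTTCGCGC stood in 9 of 61, all H2A or H2B, against 0.323% of all, TTTCCCGC in 1 of 61 against 1.07%, and TTTGGCGC in 0 of 61 against 0.514%. TGACGTCA stood in 4 of 61, against 1.79% of all. CCAAT was found in 39 of 44 promoters with a peak over the start and in 13 of 17 without, and GGTCCG in 9 of 44 and 4 of 17. These are matches of letters, not bound sites.

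Near-identical copies limit how some of these loci can be read. Stretches of at least 150 bp with at least 99% identity to another place in the genome lay in 30 of the 69 windows and in 15 of the 42 peaks. The segment of Hist1h4m, Hist1h2ao and Hist1h2bq matched that of Hist1h4n, Hist1h2ap and Hist1h2br over 100% of each window, and of these 6 genes only Hist1h4n had a peak. The inverted pair Hist2h3c1 and Hist2h2aa1 matched Hist2h3c2 and Hist2h2aa2 over 80.1% and 78.0% of their peaks, in that order. The study's methods give a minimum mapping quality of 10 for counts over whole genes, and do not say whether it also held for windows and peaks, so counts of these genes are uncertain.

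The comparison of Yap-shRNA with LacZ-shRNA asked whether loss of Yap changed accessibility at these loci. None of the histone windows passed the test: 0 of 38 members reached an adjusted p of 0.05 by the edgeR quasi-likelihood test with Benjamini-Hochberg adjustment over all windows, against 0.0223% of all windows (11 of 49366). At an unadjusted p of 0.05, 0 of 38 passed, against 4.9% of all windows. The likelihood-ratio test of edgeR and voom also called 0 windows and 0 peaks of the members. DESeq2 called 0 too, but it gave no adjusted p for some windows, among them Hist1h1b and Hist1h1t, which thus could not pass. Its unadjusted p was under 0.05 in 0 of 38 member windows and 0 of 42 member peaks. Estimates were above 0 for 18 members and below 0 for 20, with a median log2 fold change of -0.04 beside -0.01 over all windows. Summed over the 38 windows, the LacZ-shRNA samples held 255.1, 275.9 and 303.5 CPM and the Yap-shRNA samples 272.0, 270.0 and 280.2 CPM. The Yap-shRNA sums lay inside the range of the LacZ-shRNA sums. With library size alone in place of TMM factors, 21 of 38 estimates were above 0 and the median was 0.02, beside 0.05 over all windows.

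Among the windows, the lone, well-covered ones bound the change most closely. Hist1h1c had a log2 fold change of -0.12 (SE 0.15, 95% interval -0.42 to 0.19) and Hist1h4c of -0.10 (95% interval -0.41 to 0.21). For Hist1h3e it was -0.13 (95% interval -0.45 to 0.19) and for Hist1h4d 0.15 (95% interval -0.21 to 0.50). Over all members the half-width of the interval ranged from 0.30 to 0.89 on the log2 scale, and 31 of 38 intervals lay wholly between -1 and 1. A window with few counts thus could not show a smaller change.

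The groups did not overlap in 2 of 38 windows, both with Yap-shRNA above, against 5.31% of all windows above and 4.79% below. Hist2h3c2, an H3 gene of the Hist2 cluster, held 3.26, 3.52 and 2.85 CPM in the LacZ-shRNA samples and 3.87, 4.19 and 5.33 in the Yap-shRNA samples. Its log2 fold change of 0.50 (SE 0.31) had an adjusted p of 0.946 by edgeR, and its window is 83.3% covered by the near-identical copy. Hist1h4b held 1.63, 0.641 and 1.60 CPM with LacZ-shRNA and 1.63, 1.77 and 2.67 with Yap-shRNA, and its log2 fold change of 0.50 (SE 0.41) rested on 13.8 counts per sample. Its closest samples in the 2 groups, both printed as 1.63 CPM, differed by less than this rounding shows. In the peak that covers Hist2h3c2 and Hist2h2aa2 together, where counts were higher, the log2 fold change was 0.09 (SE 0.13) and the groups overlapped.

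Of the other windows with the smallest p in their direction, Hist1h3b (0.47, SE 0.38), Hist2h3c1 (0.48, SE 0.42) and Hist1h4d (0.15, SE 0.18) had positive log2 fold changes. Those with negative log2 fold changes were Hist1h3d (-0.37, SE 0.27), Hist1h3f (-0.35, SE 0.26), Hist2h3b (-0.28, SE 0.21), Hist1h1b (-0.20, SE 0.18) and Hist4h4 (-0.34, SE 0.35). Each of these adjusted p-values by edgeR was at least 0.946. H3 genes stood at both ends of this order. Single libraries moved several of the estimates named so far by more than 1.5 times. Without LacZ-shRNA replicate 1, the log2 fold change was 0.15 for Hist1h3b, 0.17 for Hist2h3c1 and 0.041 for Hist1h4d. Without LacZ-shRNA replicate 3 it was -0.15 for Hist1h3f, -0.086 for Hist2h3b, -0.10 for Hist1h1b and -0.0076 for Hist1h3e. Without Yap-shRNA replicate 1 it was -0.13 for Hist4h4, without Yap-shRNA replicate 2 -0.21 for Hist1h3d, and without Yap-shRNA replicate 3 0.27 for Hist1h4b.

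Peaks gave the same count with more reads. None of the 42 member peaks passed an adjusted p of 0.05 by the edgeR quasi-likelihood test, against 0.618% of all peaks (223 of 36097), and 0 of 42 passed an unadjusted p of 0.05, against 8.9% of all peaks. Estimates were above 0 for 24 and below 0 for 18, with a median log2 fold change of 0.03 beside -0.00 over all peaks. Summed over the 42 peaks, the LacZ-shRNA samples held 702.3, 714.2 and 749.8 CPM and the Yap-shRNA samples 761.2, 726.1 and 710.2 CPM. These sums overlapped, and all 42 intervals lay wholly between -1 and 1. With library size alone, the median over all peaks shifted to 0.14 and that of the members to 0.17, with 37 of 42 estimates above 0, so signs of peaks hold only relative to the TMM scaling.

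The groups did not overlap in 3 of 42 peaks, all with Yap-shRNA above, against 6.55% of all peaks above and 6.76% below. The peak over the H3 gene Hist1h3g held 8.21, 8.49 and 11.5 CPM in the LacZ-shRNA samples and 12.5, 12.0 and 13.1 in the Yap-shRNA samples (log2 fold change 0.36, SE 0.21). The peak over the H4 gene Hist1h4f held 9.31, 11.5 and 11.9 CPM with LacZ-shRNA and 14.4, 13.2 and 12.7 with Yap-shRNA (log2 fold change 0.29, SE 0.20). The peak over Hist1h4d held 9.31, 7.64 and 9.87 CPM with LacZ-shRNA and 12.4, 10.7 and 9.92 with Yap-shRNA (log2 fold change 0.27, SE 0.22). The gap between the groups was smallest for Hist1h4d, and the lowest adjusted p among the 42 peaks by edgeR was 0.680. The windows of Hist1h3g (0.15, SE 0.26) and Hist1h4f (0.10, SE 0.18) had smaller log2 fold changes, and their groups overlapped.

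Pair peaks and shared peaks moved no further. The peak between Hist1h2ah and Hist1h2bk had a log2 fold change of 0.26 (SE 0.20) and that between Hist1h2an and Hist1h2bp of 0.23 (SE 0.19). On the other side stood the peak over Hist4h4 (-0.18, SE 0.15), the peaks near Hist1h1b (-0.22, SE 0.18), near Hist1h2bh and Hist1h3f (-0.23, SE 0.20) and near Hist2h4 (-0.24, SE 0.22), which hold no histone start, and the peak over Hist1h3e (-0.12, SE 0.15). The most accessible peaks, over Hist1h4c (-0.08, SE 0.15), Hist2h4 (0.04, SE 0.15), Hist3h2a (0.05, SE 0.12) and the 3 Hist2 genes beside Bola1 (0.02, SE 0.12), had estimates within 1 SE of 0.

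**Figure D4:**
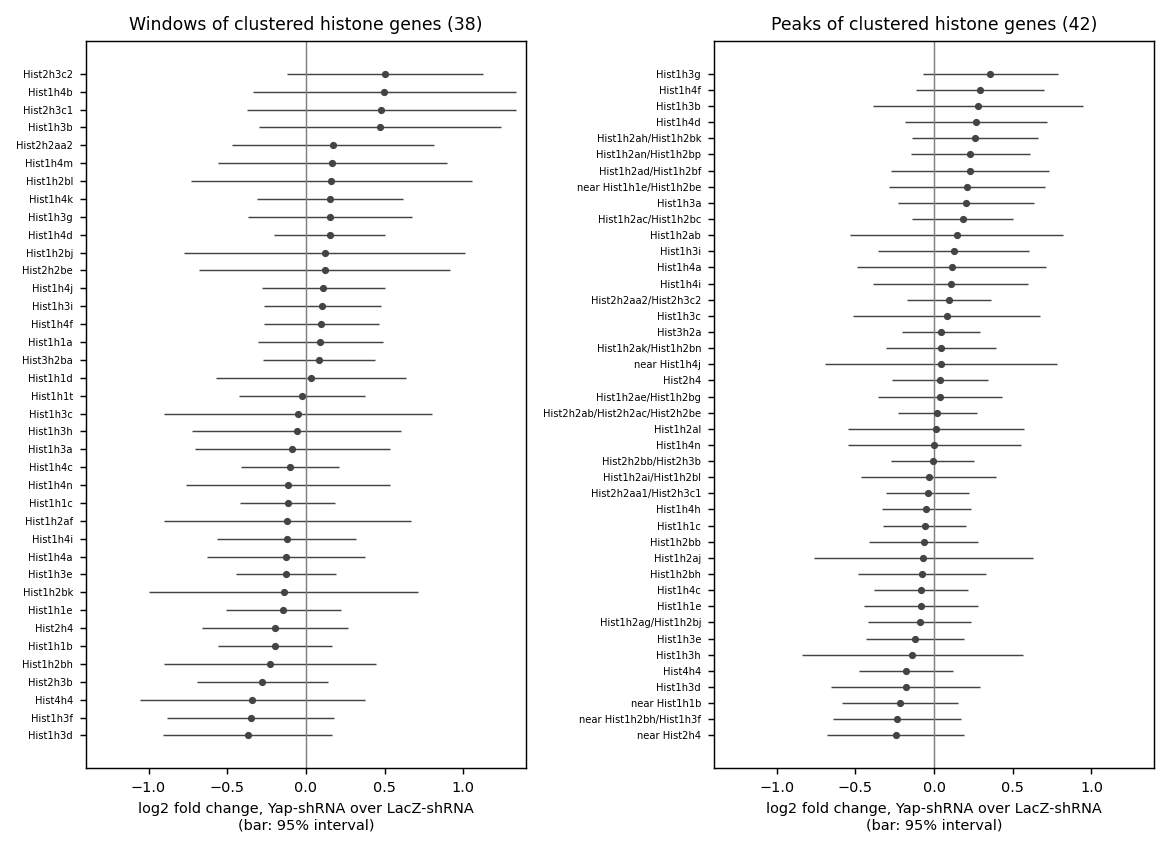
Log2 fold change of Yap-shRNA over LacZ-shRNA (x axis; points are estimates, bars 95% intervals) for the 38 member windows and the 42 member peaks, each ordered by its estimate (y axis, gene names, with near for peaks that hold no histone start). Every interval includes 0, and the median half-width of the intervals is 0.41 for peaks and 0.53 for windows.

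Genes that act with the clustered histones were read from lists, beside 0.0223% of all windows past the adjusted and 4.9% past the unadjusted threshold. At these shares, lists of 8 to 17 genes are too short for a count of 0 or 1 to set them apart. Of 9 measured variant genes outside the clusters, 0 passed the adjusted threshold and 0 the unadjusted one by edgeR, with 2 estimates above 0 and a median log2 fold change of -0.05. The 2 genes for H3.3, H3f3b (11.1 CPM per kb of window, log2 fold change -0.03, SE 0.13) and H3f3a (1.38 CPM per kb, -0.20, SE 0.32), differed in level, and the window of H3f3a shares all but 401 bp with another gene. H2afz (3.17 CPM per kb, -0.10, SE 0.22) and the replacement linker histone gene H1f0 (1.58 CPM per kb, -0.05, SE 0.34) also had overlapping windows.

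Of 11 measured regulators of histone gene expression, 0 passed either threshold, with 9 estimates above 0, against 47.3% of all windows, and a median log2 fold change of 0.05. Npat, the S-phase activator of the clusters, had 2.46 CPM per kb of window (log2 fold change -0.00, SE 0.19), its partner Casp8ap2 had 9.17 (0.01, SE 0.14) and Slbp had 3.34 (0.00, SE 0.19). The windows of Npat and Slbp share bases with other genes (2308 of 4002 bp and 2474 of 4280 bp are their own) and that of Casp8ap2 does not, so these levels cannot be ranked. None of 8 histone chaperone genes passed either threshold, all 8 estimates were above 0 (median log2 fold change 0.08), and the groups did not overlap for Hira, which deposits H3.3 (0.23, SE 0.13, Yap-shRNA above). Of 17 proliferation genes, 0 passed the adjusted threshold and 1 the unadjusted one, Mcm4, a subunit of the replicative helicase, with a log2 fold change of -0.47 (SE 0.22) and overlapping groups. Of the 17, 11 estimates were above 0, and the groups did not overlap for Cdk1 (0.27, SE 0.14), Top2a (0.13, SE 0.13) and Pcna (0.33, SE 0.20), all with Yap-shRNA above. These were 3 of 17 windows, and Hira was 1 of 8, against 5.31% of all windows with Yap-shRNA above. The proliferation windows had a median of 6.80 CPM per kb, and window accessibility does not measure whether a nucleus cycles.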

How the data were processed

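ATAC-seq libraries of PCM1+ nuclei from 3 LacZ-shRNA and 3 Yap-shRNA samples were analysed. The authors mapped paired-end reads to GRCm38 with BWA 0.7.17, used SAMtools 1.8 to discard duplicates and MACS 1.4.2-1 to find peaks, of which those present in more than 1 sample entered counting by featureCounts 1.5.0, per the study's methods and the submitters' processing notes. The deposited values are raw read counts per peak and per window of transcript starts, and the lowest mean of a row is 10, the minimum the authors set. A minimum mapping quality of 10 is stated for counts over whole genes, and the transposase offset is not given in the sources used here.

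All 49366 window identifiers matched GENCODE M21 (GRCm38), from which windows of 1000 bp to each side of every transcript start were rebuilt. The test was the quasi-likelihood test of edgeR 4.0.16 (R 4.3.3), with normalisation by TMM and Benjamini-Hochberg adjustment over all windows or all peaks at 0.05. A positive log2 fold change means more counts with Yap-shRNA. Levels are TMM-normalised CPM per kb. Intervals are 95% intervals of the fit. The fit was also run on counts simulated from its own model, which checks the code and not its power at the histone windows. Sequences came from the RefSeq genome and promoter tables (GRCm38.p6), and copies were sought with BLAST 2.17.0. Alternatives were a likelihood-ratio test, DESeq2 1.42.0, voom in limma 3.58.1, other scalings, a mean count of at least 50, a replicate block, an adjusted p of 0.01 and leaving out each sample.

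Named were the 3 highest and the lowest lone windows of each class, the 5 windows and peaks with the smallest p in each direction, the 5 highest peaks, the Hist3 and Hist4 members, 7 listed genes and exceptions to stated patterns. Any other gene was named after its values were seen. The members and lists were chosen with earlier results of these data known. The design text speaks of cardiomyocytes, whereas the labels and methods give skeletal muscle.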

Additional observations from a re-analysis of the deposited data

How the results depend on the processing

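No count of calls changed under the 14 alternatives of each comparison: 0 of the member windows, 0 of the member peaks and 0 of the 45 listed windows passed the adjusted threshold in every one, and 0 passed under the replicate block. DESeq2 gave some windows no adjusted p, so those could not pass there. The control was in the contralateral limb, but the labels do not say which samples share animals, so the samples were not treated as pairs. Between same-numbered samples, the correlations of the deviations were 0.17, -0.17 and 0.09 for windows and 0.01, -0.18 and -0.20 for peaks. Between differently numbered samples they ranged from -0.29 to 0.24 for windows and from -0.04 to 0.20 for peaks. These values cannot tell whether the samples are paired. The median log2 fold change of the member windows ranged from -0.07 to 0.06 and that of the peaks from -0.02 to 0.17, the last with library size alone, which also gave 2 peaks with an unadjusted p under 0.05. The median level of 2.86 CPM per kb became 6.45 with only windows that overlap no other window, and 5.46 with a mean count of at least 50, since fewer windows entered.

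For the 39 named windows and peaks, 456 of 498 log2 fold changes under the alternatives kept their sign and 42, in 18 of them, turned. None of those with an adjusted p passed the threshold (lowest adjusted p 0.295). With library size alone, the log2 fold change of the window became 0.036 for Hist1h1t, 0.056 for Npat, 0.030 for H3f3b and 0.0071 for H1f0, and that of the peak 0.017 for Hist1h3e and 0.055 for Hist1h4c. With the replicate block, Hist1h1t became 0.021, Npat 0.0093 and Slbp -0.0023. Slbp was -0.0055 by the likelihood-ratio test, -0.034 by DESeq2, -0.0017 with RLE factors and -0.0042 with a mean count of at least 50, where Casp8ap2 was -0.00033. Leaving out 1 sample at a time gave windows from -0.26 to 0.010 for Hist1h1c, -0.13 to 0.084 for Hist1h1t, -0.00068 to 0.17 for Hist3h2ba, -0.25 to 0.10 for Hist1h4c and -0.042 to 0.19 for Hist1h4j. It gave peaks from -0.26 to 0.024 for Hist4h4, -0.17 to 0.081 for Hist1h4c, -0.021 to 0.089 for Hist2h4, -0.017 to 0.088 for Hist3h2a and -0.043 to 0.057 for the peak beside Bola1, and windows of the other genes from -0.10 to 0.075 for Npat, -0.12 to 0.14 for Casp8ap2, -0.17 to 0.30 for Slbp, -0.38 to 0.29 for H3f3a, -0.086 to 0.028 for H3f3b, -0.31 to 0.038 for H2afz and -0.25 to 0.13 for H1f0. The cause of these turns was not tested. Without a change of sign, it gave windows from 0.15 to 0.72 for Hist1h3b, 0.17 to 0.76 for Hist2h3c1, 0.041 to 0.24 for Hist1h4d, 0.27 to 0.66 for Hist1h4b, 0.025 to 0.33 for Hist1h4k, 0.036 to 0.16 for Hist1h3i, -0.19 to -0.0076 for Hist1h3e, -0.50 to -0.15 for Hist1h3f, -0.36 to -0.086 for Hist2h3b, -0.28 to -0.10 for Hist1h1b, -0.60 to -0.13 for Hist4h4 and -0.54 to -0.21 for Hist1h3d, and peaks from 0.25 to 0.58 for Hist1h3g, 0.19 to 0.40 for Hist1h4f, 0.17 to 0.36 for Hist1h4d, 0.15 to 0.36 for Hist1h2ah and Hist1h2bk, 0.12 to 0.29 for Hist1h2an and Hist1h2bp and -0.31 to -0.10 for the one near Hist1h2bh and Hist1h3f. DESeq2 gave no adjusted p for some of the named windows, among them Hist1h1b, Hist1h1t and Slbp.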
